A study of Ovis aries with 40 samples.

Results

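The levels of 10 of the 24478 genes in the count tables were followed through lung development in wild type (WT) and cystic fibrosis (CF) sheep. They are EGLN3, ANKRD37, BNIP3, BNIP3L, DDIT4, AK4, BHLHE40, ADM, CA9 and CA12, known targets of the hypoxia-inducible factors (HIFs) whose products do not act in glycolysis, and they were picked by gene name. Their levels in CF lung at term were known when they were picked, so values at term are given as a description without a test. Bulk RNA was sequenced from proximal and distal lung of American Romney sheep on gestation days 65, 80, 100 and 120 and at term, which the labels give as day 147, with 2 libraries for each of 20 conditions and 40 libraries in all. WT animals were bred and carry no engineered allele, whereas CF animals are CFTR-/-. The CF animals were cloned by somatic cell nuclear transfer from modified male fetal fibroblasts in which exon 2 of CFTR, the chloride channel gene, had been targeted. Cloning and the loss of CFTR therefore cannot be told apart. The sex of the WT animals is not given in the study's methods, so sex may also differ between the genotypes. WT term lambs were delivered naturally according to the study's methods, and the delivery of the CF term animals is not given there, nor for either genotype the interval from birth to tissue collection. Both regions of an animal carry 1 label, so 2 CF animals stand behind the 4 CF term libraries.

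HIFs are pairs of an oxygen-regulated alpha subunit, HIF-1 alpha or HIF-2 alpha (genes HIF1A and EPAS1), and the stable partner ARNT. With oxygen present, prolyl hydroxylases of the EGLN family mark the alpha subunit for VHL, which directs it to the proteasome. With little oxygen the subunit persists and switches on genes for glycolysis, mitochondrial turnover, vessel growth and pH control, among which the genes described here are widely used as readouts. The fetal lung develops at low oxygen tension, and the first breaths at birth raise it.

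Libraries had 24670355 to 43700012 counted reads in WT before term (n = 16), 85773994 to 103139483 in CF before term (n = 16), 115937437 to 126749480 in WT at term (n = 4) and 117316905 to 119451372 in CF at term (n = 4). Depth therefore differed with genotype before term and with age in WT. Values are CPM, which are counts scaled to library size, here after TMM normalization within a region. The labels call the tissue lung epithelial tissue, and the epithelial genes EPCAM at 89.9 to 226 CPM and NKX2-1 at 61.1 to 171 CPM were present before term, as was the endothelial gene PECAM1 at 187 to 704 CPM. In such bulk samples fewer cells of a type and less RNA per cell cannot be told apart. CFTR was at 9.59 to 14.8 CPM in WT and 3.65 to 5.15 CPM in CF at term, and its ranges overlapped before term, at 11 to 43.9 CPM in WT and 5 to 34.6 CPM in CF. Both term libraries of CF replicate 2, which are from 1 animal, stood apart from all others for most of the 10 genes. The 2 CF proximal libraries of day 120 were also far from each other, differing by a root mean square of 1.63 in log2 CPM over all genes against 0.223 to 0.758 in the other 19 conditions.

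The 10 genes spanned a wide range of levels before term. Per kilobase of annotated exon the median over the 32 libraries was highest for DDIT4, at 30.9 CPM per kb, followed by BNIP3 at 18.5 CPM per kb. The ranges of this pair overlapped, at 16.2 to 63 and 12.8 to 36.7 CPM per kb. BNIP3L at 7.36, ADM at 5.41, EGLN3 at 3.95, BHLHE40 at 3.06 and AK4 at 2.16 CPM per kb formed a middle group in which each overlapped its neighbours, and all libraries of BNIP3L lay below all of BNIP3. ANKRD37 at 0.932 and CA9 at 0.642 CPM per kb were lower and overlapped. CA12 was lowest, with 0.0755 CPM per kb, and its highest library at 0.181 CPM per kb was below the lowest of CA9 at 0.224 CPM per kb. All 10 passed the filter on low counts in every comparison.

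In the plot of the 40 libraries, ADM and BHLHE40 were higher at days 100 and 120 than at days 65 and 80 in WT lung of both regions, while BNIP3, BNIP3L and AK4 kept within a few-fold in all 32 libraries taken before term.

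**Figure D1:**
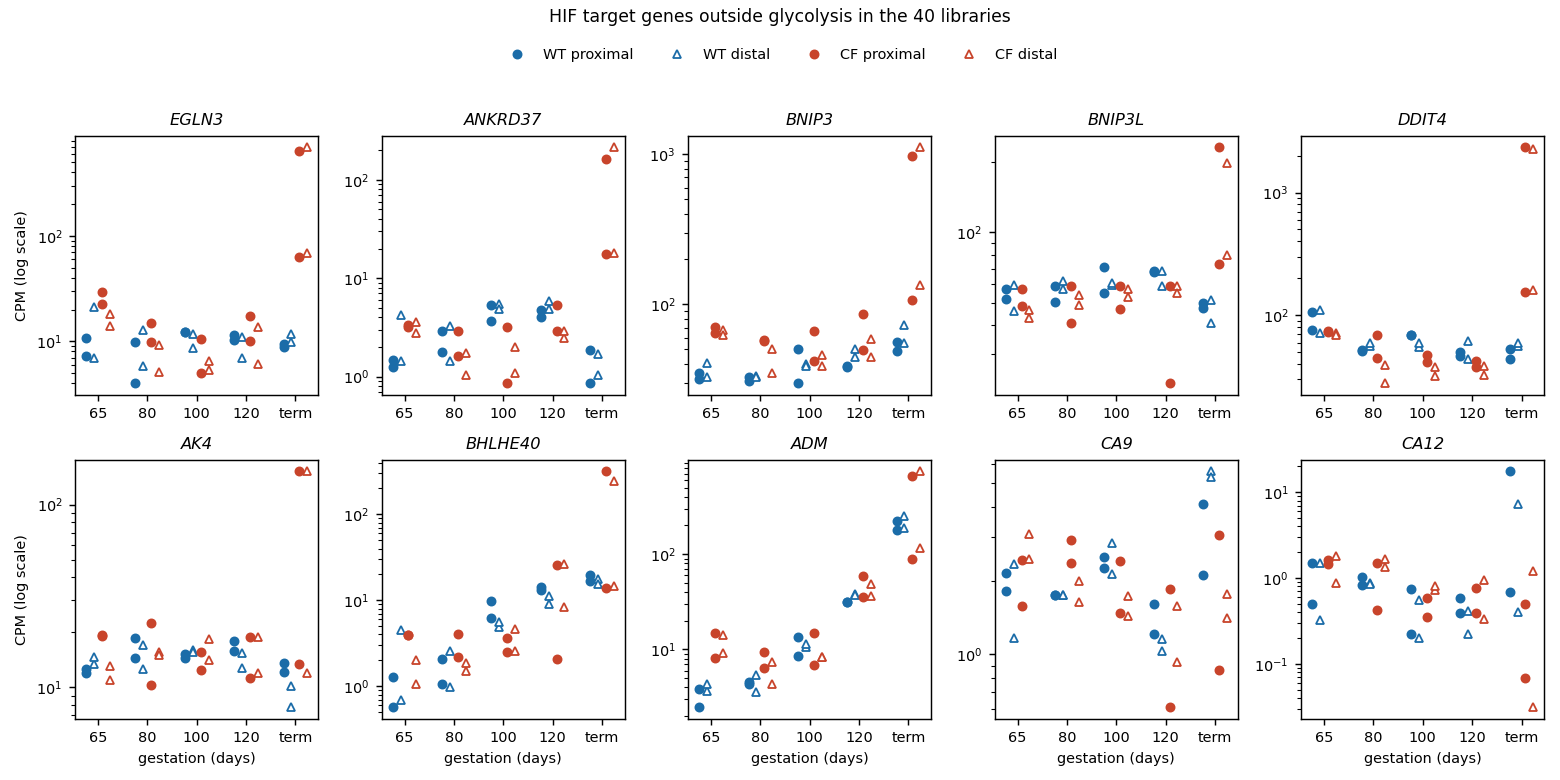
Level of each of the 10 genes in CPM (log scale, a scale of its own in each panel) against gestation in days, with 1 point per library, WT in blue, CF in red, circles for proximal and triangles for distal lung. ADM and BHLHE40 rise before term in WT proximal lung, and CF replicate 2 at term is the highest library for 8 genes in each region.

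EGLN3 encodes prolyl hydroxylase PHD3, one of the enzymes that mark HIF alpha subunits for removal, and is itself strongly induced by HIF. It lies at chr18:43235038-43264406 on the minus strand of Oar_v4.0. Before term it ran from 4.04 to 12.3 CPM with a median of 10.6 in WT proximal lung, and from 4.95 to 29.5 CPM with a median of 12.8 in CF proximal lung (n = 8 each). In distal lung the ranges were 5.8 to 21.2 CPM with a median of 9.83 in WT and 5.12 to 18 CPM with a median of 7.83 in CF. The genotypes overlapped in both regions. At term EGLN3 was at 9.38 and 8.84 CPM in WT and at 63.6 and 636 CPM in CF proximal lung. In distal lung it was at 9.74 and 11.8 CPM in WT and at 68.1 and 690 CPM in CF. Both CF animals were above every library taken before term, CF replicate 1 by 6.98-fold over the WT term mean in proximal and 6.32-fold in distal lung, and replicate 2 by 69.8-fold and 64.1-fold.

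ANKRD37, a small ankyrin repeat protein and a direct HIF target, lies at chr26:14367444-14385958 on the plus strand, and its exons overlap those of UFSP2. The strand setting of the counting is not given, so reads of this pair may not have been told apart. It ranged from 0.869 to 5.85 CPM in the 32 libraries before term. At term it was at 0.864 and 1.87 CPM in WT proximal and 1.04 and 1.69 CPM in WT distal lung. The CF values were 17.7 and 164 CPM in proximal and 17.8 and 213 CPM in distal lung. The groups did not overlap, and CF replicate 1 alone was 12.9-fold above the WT mean in proximal and 13-fold in distal lung, the widest margin of the 10 genes for this animal.

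BNIP3 and BNIP3L encode related proteins of the outer mitochondrial membrane that recruit mitochondria for autophagy. BNIP3 (chr22:49622380-49632564, minus strand) was at 48.5 and 56.2 CPM in WT and 107 and 969 CPM in CF proximal lung at term. In distal lung it was at 55.1 and 72.5 CPM in WT and 134 and 1110 CPM in CF. BNIP3L (chr2:39088641-39109585, minus strand) was at 47.2 and 49.7 CPM in WT and 73.4 and 232 CPM in CF proximal lung. It was at 41 and 51.1 CPM in WT and 80.3 and 198 CPM in CF distal lung. All CF term libraries were above both WT libraries for both genes, with CF replicate 1 over the WT mean by 2.04-fold for BNIP3 and 1.52-fold for BNIP3L in proximal lung, and by 2.11-fold and 1.74-fold in distal lung. BNIP3L had the narrowest gap between the CF animals of the genes raised in both, replicate 2 being 3.16-fold above replicate 1 in proximal and 2.47-fold in distal lung.

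DDIT4 encodes REDD1, an inhibitor of the growth kinase mTORC1 that is induced by hypoxia, glucocorticoids and other stress. It lies at chr25:28097532-28099657 on the plus strand. At term it was at 52.8 and 44.4 CPM in WT and 156 and 2330 CPM in CF proximal lung, and at 56.1 and 60 CPM in WT and 162 and 2260 CPM in CF distal lung. DDIT4 in CF replicate 2 was the highest level of any of the 10 genes in any library, 15-fold above CF replicate 1 in proximal and 14-fold in distal lung. Replicate 1 was 3.21-fold and 2.79-fold above the WT mean.

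AK4, a mitochondrial adenylate kinase, and BHLHE40, a transcriptional repressor of the circadian and hypoxic responses, were raised in CF replicate 2 alone or nearly so. AK4 (chr1:40262884-40357070, plus strand) was at 12.1 and 13.5 CPM in WT and 13.4 and 152 CPM in CF proximal lung at term. In distal lung it was at 10.1 and 7.81 CPM in WT and 12 and 152 CPM in CF. CF replicate 1 lay between the WT libraries in proximal and 1.34-fold above their mean in distal lung. BHLHE40 (chr19:21326737-21330686, minus strand, exons overlapping LOC105603426) was at 16.7 and 19.8 CPM in WT and 13.9 and 316 CPM in CF proximal lung. In distal lung it was at 17.7 and 15.6 CPM in WT and 14.6 and 246 CPM in CF. For BHLHE40 CF replicate 1 was below both WT libraries and replicate 2 above both in each region.

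ADM encodes adrenomedullin, a vasodilator peptide made by vessels and lung, and lies at chr15:41847501-41849842 on the minus strand. At term it was at 221 and 178 CPM in WT and 90 and 656 CPM in CF proximal lung, and at 254 and 189 CPM in WT and 115 and 739 CPM in CF distal lung. CF replicate 1 was below both WT libraries, the WT mean being 2.21-fold higher in proximal and 1.93-fold higher in distal lung, and replicate 2 was above them by 3.29-fold and 3.34-fold. ADM was the one gene of the 10 for which both WT term libraries exceeded all libraries before term in both regions.

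CA9 and CA12 encode carbonic anhydrases of the cell surface that help to export acid, and both had low counts. CA9 (chr2:52600201-52607123, minus strand) was at 4.12 and 2.11 CPM in WT and 0.864 and 3.06 CPM in CF proximal lung at term. In distal lung it was at 5.58 and 5.3 CPM in WT and 1.41 and 1.77 CPM in CF, so that both CF libraries were below both WT libraries there and the groups overlapped in proximal lung. CA12 (chr7:43660764-43725866, plus strand) was at 0.689 and 17.5 CPM in WT and 0.068 and 0.497 CPM in CF proximal lung. It was at 0.398 and 7.25 CPM in WT and 0.0317 and 1.22 CPM in CF distal lung. The WT animals differed far more from each other for CA12 than for the other members, with replicate 2 high in both regions. On the scale of CPM plus 0.5 it was the member whose WT term libraries were more than 4-fold apart, as they were for 0.452% of all genes in proximal and 0.682% in distal lung. Neither carbonic anhydrase was above both WT libraries in both CF libraries of a region.

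Over the 10 genes, both CF term libraries were above both WT libraries for 5 in proximal lung, where 24.6% of all genes tested had this order, and for 6 in distal lung, where 23.1% did. The 5 were EGLN3, ANKRD37, BNIP3, BNIP3L and DDIT4, and AK4 was the sixth in distal lung. Both CF libraries were below both WT libraries for 1 gene in each region, CA12 in proximal lung (29.7% of all genes) and CA9 in distal lung (25.9%). CF replicate 2 was above replicate 1 for all 10 genes in both regions. Counted on CPM plus 0.5, it was more than 4-fold above the WT mean for 7 genes in each region, against 1.58% of all genes in proximal and 1.67% in distal lung, and more than 4-fold above replicate 1 for 7 in each region, against 1.05% and 1.35%. On this scale CF replicate 1 was more than 4-fold above the WT mean for 2 genes in each region, EGLN3 and ANKRD37, against 0.59% and 0.523%. CA12, near 0 in CF replicate 1, does not count as 4-fold between the CF animals once 0.5 CPM is added. The members were chosen with these values known, and nothing is read from these shares.

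**Figure D2:**
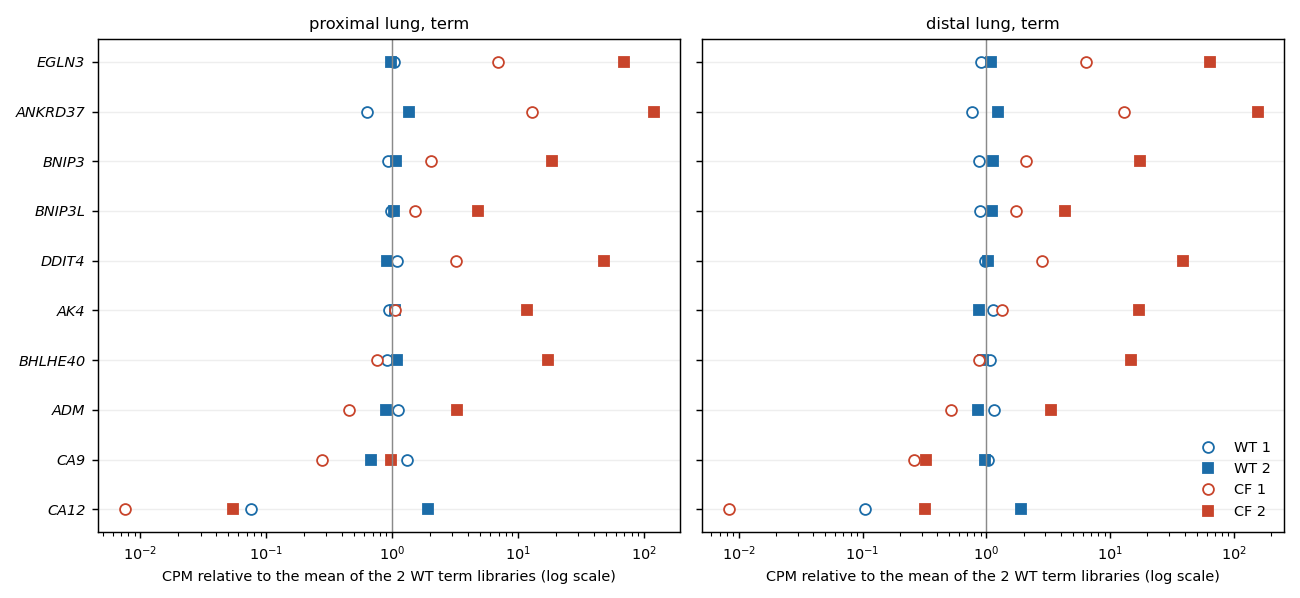
Level of each of the 10 genes in the 4 term libraries of each region, as CPM relative to the mean of the 2 WT libraries (log scale), with WT in blue, CF in red, open circles for replicate 1 and filled squares for replicate 2. CF replicate 2 is above both WT libraries for 8 genes in each region, and CF replicate 1 for 5 in proximal and 6 in distal lung.

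Other gene groups differed between the term libraries as well, and their counts of genes above or below both WT libraries stand against 24.6% above and 29.7% below over all genes in proximal and 23.1% and 25.9% in distal lung. The summed level of the 10 macrophage genes in the table was 1030 to 2130 CPM in WT and 301 to 492 CPM in CF at term, with all 10 below both WT libraries in CF in each region. Immediate early and stress genes summed to 969 to 2070 CPM in WT and to 2910 to 7830 CPM in CF, higher in CF replicate 1 (5180 CPM proximal, 7830 CPM distal) than in replicate 2 (4190 and 2910 CPM). HSPA1A, a heat shock protein, made up most of the CF sums, at 4490 and 2920 CPM in proximal and 6760 and 1600 CPM in distal lung. The median difference to WT of the 18 genes, in log2 of CPM plus 0.5, was instead larger in replicate 2, at 0.93 in proximal and 0.69 in distal lung against 0.22 and 0.30 in replicate 1. The summed epithelial genes were at 9280 CPM in proximal and 7280 CPM in distal lung of CF replicate 2, and at 15700 to 29400 CPM in the other 6 term libraries, with EPCAM still at 176 to 287 CPM in all 8. The surfactant gene SFTPC was at 4180 and 3210 CPM in CF replicate 2 and at 8120 to 22800 CPM in the other 6, and so weighed heavily in this sum. The median difference to WT of the 13 epithelial genes was lower in CF replicate 1, at -0.76 in proximal and -0.73 in distal lung, than in replicate 2, at -0.41 and -0.43. The 10 endothelial genes summed to 1490 to 2210 CPM in WT and 2250 to 2680 CPM in CF, with 6 of them above both WT libraries in both CF libraries of each region. The 7 smooth muscle genes summed to 625 to 1020 CPM in WT and 280 to 559 CPM in CF. Glucocorticoid-responsive genes, which matter for DDIT4, summed to 1030 to 1310 CPM in WT and 991 to 1450 CPM in CF, and these sums overlapped. Of the 12 single genes, 4 were above and 5 below both WT libraries in both CF libraries of proximal lung. In distal lung 3 were above and 4 below. Erythroid genes summed to 7.68 to 17.2 CPM in WT and 13.4 to 20.1 CPM in CF, ranges that also overlapped. Of these 12 genes, 6 were above and 1 below in proximal lung, and 7 above and 0 below in distal lung. The part of these differences in the levels of the 10 genes was not tested.

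The other genes of the pathway were taken from lists. Among 14 genes for HIF subunits and regulators, both CF term libraries were above both WT libraries for 3 and below for 3 in proximal lung, and for 4 and 2 in distal lung, where the shares of all genes were 24.6% and 29.7% in proximal and 23.1% and 25.9% in distal lung. Nothing is read from these counts, and the genes that follow are given for their roles and values. HIF1A and EPAS1 are given as the alpha subunits themselves. HIF1A was at 102 and 100 CPM in WT and 68.3 and 243 CPM in CF proximal lung. There its message had the order of the ADM values, low in CF replicate 1 and high in replicate 2. In distal lung HIF1A was at 96.4 and 54 CPM in WT and 62.5 and 220 CPM in CF. CF replicate 1 thus lay between the WT libraries for HIF1A there, whereas for ADM it was below both. EPAS1 was at 855 to 1380 CPM in WT and 589 to 1250 CPM in CF over both regions. Those higher in both CF libraries included CITED2, which competes with HIF for its coactivators, at 59.5 and 67.2 CPM in WT and 102 and 162 CPM in CF proximal lung, and HIF3A, an inhibitory alpha subunit, at 5.71 and 15.7 CPM in WT and 21.6 and 72 CPM in CF. VHL, at 38.3 and 44.6 CPM in WT and 36.5 and 18.4 CPM in CF proximal lung, was among those lower in both.

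Of 33 other HIF targets outside glycolysis, 18 were above and 2 below both WT libraries in both CF libraries of proximal lung, and 16 above and 3 below in distal lung. Over all genes 24.6% were above and 29.7% below in proximal lung, and 23.1% and 25.9% in distal lung. STC1, a secreted glycoprotein, was at 44.8 and 36.7 CPM in WT and 135 and 384 CPM in CF proximal lung, and EDN1, the vasoconstrictor endothelin, at 20.9 and 24.7 CPM in WT and 44.4 and 166 CPM in CF. HMOX1, the heme oxygenase, was lower, at 96.2 and 98.8 CPM in WT and 45.6 and 50.2 CPM in CF. The median difference to WT of these 33 genes, in log2 of CPM plus 0.5, was 0.28 in CF replicate 1 and 1.79 in replicate 2 in proximal lung, and 0.29 and 1.58 in distal lung. The corresponding medians of the 10 genes were 0.33 and 3.80 in proximal and 0.61 and 3.94 in distal lung, and those of 20 genes of glycolysis and glucose uptake were 0.27 and 2.6 in proximal and 0.36 and 2.6 in distal lung. Over all genes tested the medians were -0.02 and -0.04 in proximal lung. The 10 genes were chosen with their term values known, so nothing is read from setting their medians beside the others. The glucose transporter SLC2A3 reached 3710 CPM in CF replicate 2 of proximal lung, against 240 CPM in replicate 1 and 47.9 and 49.4 CPM in WT.

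**Figure D3:**
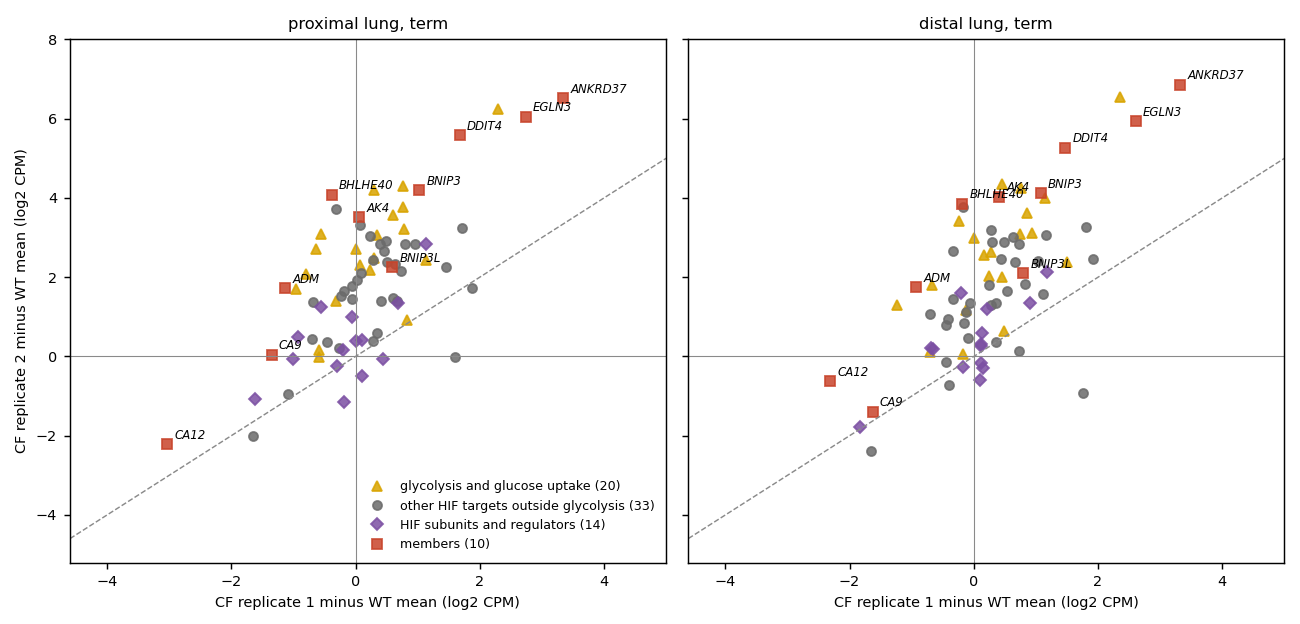
Difference to the WT term mean in CF replicate 1 (x axis) and CF replicate 2 (y axis), in log2 of CPM plus 0.5, for the 10 genes (red squares, named), other HIF targets (grey circles), genes of glycolysis and glucose uptake (yellow triangles) and HIF subunits and regulators (purple diamonds), with equal differences on the dashed line. The 10 genes lie above the line in both regions, and EGLN3 and ANKRD37 are the most raised of them in both animals.

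Before term, CF was compared with WT over the mean of days 65, 80, 100 and 120, a contrast without the term values. A gene was called where its Benjamini-Hochberg adjusted p, taken over the whole table, did not exceed 0.05. None of the 10 was called in proximal lung, where 20.6% of all genes were called and 2 of the 10 had an unadjusted p below 0.05, or in distal lung, where 32.3% were called and 0 of the 10 had one. DESeq2 also called 0 in each region, with 28.4% of all genes called in proximal and 36.8% in distal lung. Log2 fold changes ran from -0.30 to 0.81 in proximal and from -0.83 to 0.87 in distal lung. The smallest adjusted p-values were those of ADM (0.81, SE 0.326, edgeR adjusted p = 0.0963) and BNIP3 (0.78, SE 0.314, adjusted p = 0.0973) in proximal lung. EGLN3 differed by 0.50 (SE 0.359, adjusted p = 0.354) there and by -0.21 (SE 0.376, adjusted p = 0.728) in distal lung.

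These tests shared their estimate of the spread with the term libraries, between which the members differed widely. Without the term libraries in the fit, BNIP3 and ADM were called higher in CF in proximal lung, 2 of 10 where 21.8% of all genes were called. In distal lung 4 of 10 were called, where 39% of all genes were, with BNIP3 and ADM higher and ANKRD37 and DDIT4 lower in CF. Both counts are near the share over all genes, and nothing is read from them about the members as a group. BNIP3 was higher by 0.77 (SE 0.153, edgeR adjusted p = 0.00571) in proximal and 0.35 (SE 0.094, adjusted p = 0.0105) in distal lung. In proximal lung its CF libraries were at 70.9 and 64.8 CPM at day 65, 58 and 56.7 at day 80, 41.8 and 66.8 at day 100 and 49.3 and 85.8 CPM at day 120. The WT libraries were at 32 and 34.9, 32.7 and 30.8, 30 and 50.3, and 38.9 and 38 CPM at the same days, so the genotypes overlapped only at day 100. ADM was higher in CF by 0.80 (SE 0.221, adjusted p = 0.0255) in proximal and 0.44 (SE 0.144, adjusted p = 0.0301) in distal lung. DDIT4 was lower by -0.61 (SE 0.111, adjusted p = 0.00117) and ANKRD37 by -0.84 (SE 0.263, adjusted p = 0.0246) in distal lung. At term both of these genes were above both WT libraries in both CF libraries of distal lung. Leaving out CF term replicate 2 alone called these 4 genes in these directions, BNIP3 and ADM in both regions and the other two in distal lung, where 21.6% of all genes were called in proximal and 34.9% in distal lung, and leaving out CF proximal replicate 1 of day 120 called BNIP3 (0.87, adjusted p = 0.0479) in proximal lung, with 34.9% of all genes.

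**Figure D4:**
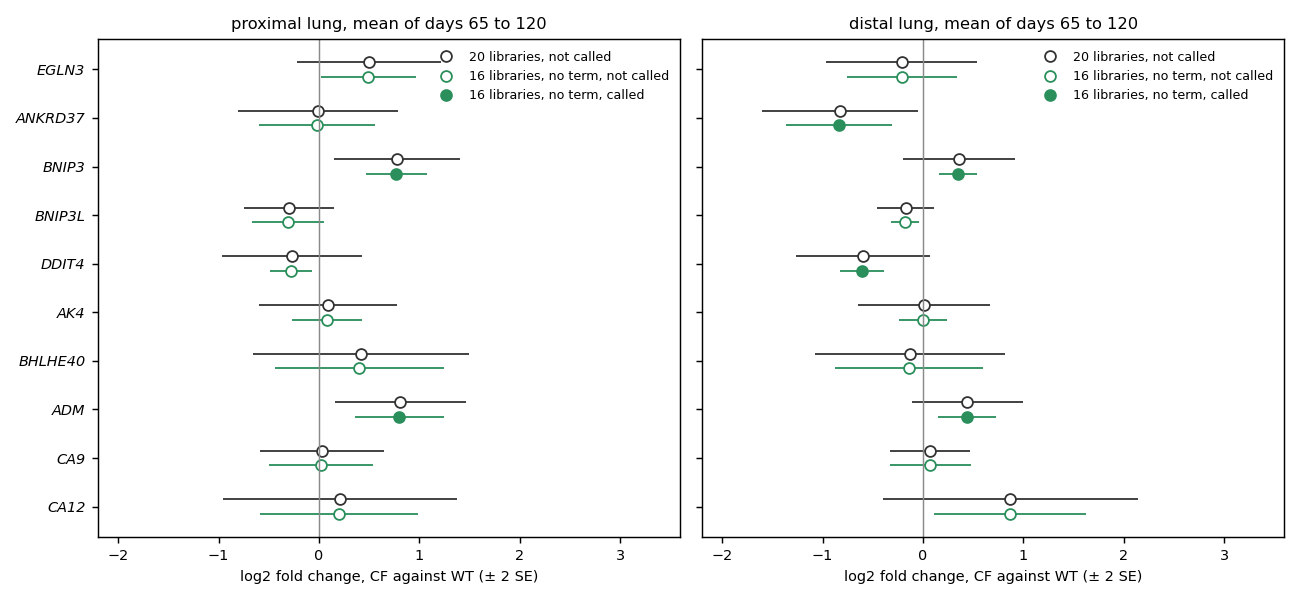
Log2 fold change of CF against WT over the mean of days 65 to 120 for the 10 genes (points, bars of 2 SE either side), from all 20 libraries of a region (black) and from the 16 libraries before term (green), with filled points for an adjusted p of 0.05 or less. BNIP3 and ADM in both regions and ANKRD37 and DDIT4 in distal lung are filled without the term libraries.

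Cell type markers differed in the same contrast, here with all 20 libraries of a region in the fit, which called 20.6% of all genes in proximal and 32.3% in distal lung. All 7 smooth muscle genes were called higher in CF in proximal lung and 6 of 7 in distal lung, as for MYH11, a smooth muscle myosin, at 1.17 and 1.22, and their summed level before term was 297 to 794 CPM in WT and 659 to 1580 CPM in CF. Of 10 endothelial genes 4 were higher in proximal and 5 in distal lung, with EGFL7 at 1.65 and 1.32, their sums being 981 to 2300 CPM in WT and 1210 to 2900 CPM in CF. Of 9 cartilage genes 4 were higher in each region and 1 was lower in distal lung, and of 13 epithelial genes 1 was lower in proximal and 3 in distal lung, EPCAM by -0.71 and -0.67. Of 10 macrophage genes 1 was higher and 1 lower in proximal lung, and in distal lung CD68 was higher (0.95) and 4 were lower, as for MRC1 (-0.85) and C1QA (-0.72). Of 12 erythroid genes HBM (-1.04) and ALAS2 (-0.80) were lower in distal lung and 0 were called in proximal lung, and of 12 glucocorticoid-responsive genes 1 was lower in each region. The part of these differences in the levels of BNIP3, ADM, ANKRD37 and DDIT4 was not tested.

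On single days before term, none of the 10 was called between the genotypes in 4 comparisons per region, where the share of all genes called from the earliest to the latest day was 0.167%, 0.0885%, 0.383% and 1.35% in proximal and 5.23%, 5.92%, 5.3% and 4.38% in distal lung. An unadjusted p below 0.05 was found in 1 of 40 member tests in proximal and 2 of 40 in distal lung. The difference between CF and WT in the change from day 65 to day 120 was called for 0 of the 10 and for 0% of all genes in either region by edgeR, with 0 of 20 member tests at an unadjusted p below 0.05. Without CF proximal replicate 1 of day 120, 13.9% of all genes and 0 of the 10 were called for it in proximal lung. DESeq2 also called none of the 10 for this difference, and called 11 genes in proximal (0.0563% of all genes) and 161 in distal lung (0.869%).

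Of the other pathway genes before term, 2 of 14 HIF subunits and regulators were lower in CF in proximal lung, VHL by -0.43 (SE 0.131, adjusted p = 0.0316) and CITED2 by -0.39 (SE 0.127, adjusted p = 0.0424). These counts stand beside the 20.6% of all genes called in proximal and 32.3% in distal lung, and nothing is read from them. In distal lung 3 of 14 were lower, again VHL (-0.43) and CITED2 (-0.35) with the ubiquitin ligase subunit RBX1 (-0.36), and CREBBP, a coactivator, was higher (0.44). Of 33 other HIF targets, 2 were higher and 3 lower in proximal lung (20.6% of all genes called) and 6 higher and 3 lower in distal lung (32.3%). VEGFA, the vascular growth factor, was higher by 0.75 (SE 0.153, adjusted p = 0.00187) in distal lung, whereas STC1 was lower by -0.73 (SE 0.189, adjusted p = 0.00859) there and by -0.70 (SE 0.191, adjusted p = 0.02) in proximal lung.

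During gestation 4 of the 10 genes were called from day 65 to day 120 in WT proximal lung, where 20.1% of all genes were, and 3 of them rose and 1 fell. ADM, in WT proximal lung, was at 2.5 and 3.82 CPM at day 65, 4.31 and 4.55 at day 80, 8.46 and 13.6 at day 100 and 31.7 and 31.3 CPM at day 120, a log2 fold change of 3.31 (SE 0.268, edgeR adjusted p = 9.1e-05). BHLHE40 was at 1.29 and 0.577 CPM at day 65, 1.06 and 2.1 at day 80, 9.85 and 6.2 at day 100 and 13 and 14.1 CPM at day 120, a rise of 3.85 (SE 0.456, adjusted p = 0.000554). For both genes all libraries of days 100 and 120 were above all of days 65 and 80. ANKRD37 rose by 1.69 (SE 0.466, adjusted p = 0.0321), from 1.47 and 1.24 CPM to 4.06 and 4.78 CPM, a call that was lost when any 1 of these 4 libraries was left out (adjusted p 0.0918 to 0.147). DDIT4 fell by 0.92 on the log2 scale (SE 0.154, adjusted p = 0.00324), from 106 and 76 CPM at day 65 to 49.8 and 46.5 CPM at day 120.

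In WT distal lung 2 of the 10 were called over the same interval, where 18.2% of all genes were, and 1 rose and 1 fell. ADM rose by 3.22 (SE 0.216, adjusted p = 7.96e-05), from 3.68 and 4.33 CPM at day 65 to 38.6 and 37 CPM at day 120. DDIT4 fell by 0.80 on the log2 scale (SE 0.213, adjusted p = 0.0313), from 110 and 72.4 CPM to 44.2 and 61.5 CPM, a call lost without day 65 replicate 1 (-0.48, adjusted p = 0.146) or day 120 replicate 1 (-0.58, adjusted p = 0.191), and with the 2 WT day 100 libraries summed (-0.79, adjusted p = 0.0606). BHLHE40 differed by 1.94 (SE 0.723, adjusted p = 0.0995), its day 65 libraries lying apart at 4.46 and 0.685 CPM. Without day 65 replicate 1 the change of BHLHE40 was 3.84 (edgeR adjusted p = 0.00724), and by DESeq2 with all libraries, which called 24.3% of all genes, its adjusted p was 0.0157. EGLN3, BNIP3, BNIP3L, AK4, CA9 and CA12 were called in neither region of WT, and their log2 fold changes are shown with their bars in the plot of day 120 against day 65.

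Markers of cell types were called over this interval of WT lung as well, beside 20.1% of all genes in proximal and 18.2% in distal lung. Of 10 endothelial genes 7 rose in proximal and 9 in distal lung, PECAM1 by 1.43 and 1.40, and their summed level went from 1020 to 1170 CPM at day 65 to 1950 to 2300 CPM at day 120 in proximal lung. Of 7 smooth muscle genes 4 rose in proximal lung, and 3 rose and 1 fell in distal lung. Of 13 epithelial genes 4 rose in each region and 1 fell in distal lung, with SFTPB, a surfactant gene, rising by 4.26 and 3.77. Of the cartilage genes 4 fell in each region, and of the neuroendocrine genes 4 fell in proximal and 5 in distal lung. Of 12 erythroid genes 6 rose in proximal and 5 in distal lung, their sum going from 26.8 to 32.3 CPM at day 65 to 93 to 143 CPM at day 120 in proximal lung. Of 11 glucocorticoid-responsive genes tested 4 rose and 2 fell in each region, and of 10 macrophage genes 1 fell in distal lung. Immediate early and stress genes summed to 662 to 1480 CPM at day 65 and 1420 to 2520 CPM at day 120 in proximal lung, where JUNB rose by 2.03. In distal lung they summed to 726 to 1260 CPM at day 65 and 1620 to 3810 CPM at day 120. The part of these changes in those of ADM, BHLHE40, ANKRD37 and DDIT4 was not tested.

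**Figure D5:**
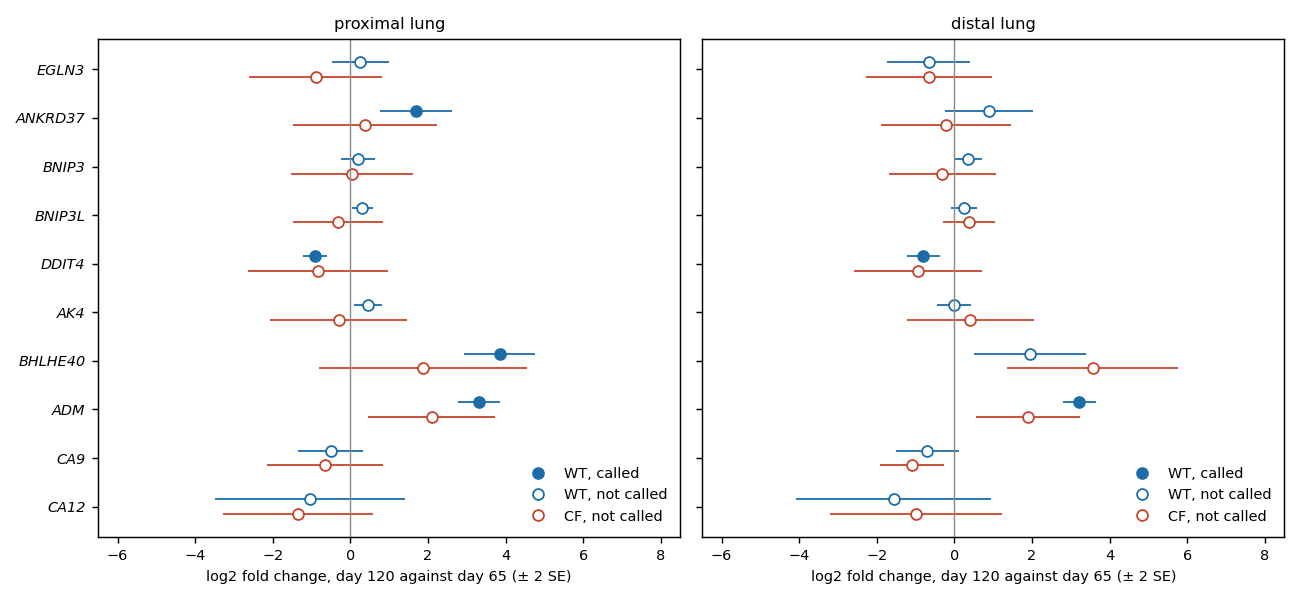
Log2 fold change from day 65 to day 120 for the 10 genes in WT (blue) and CF (red) lung, with bars of 2 SE either side and filled points for an adjusted p of 0.05 or less. ADM and BHLHE40 lie to the right in both genotypes and DDIT4 to the left, with BHLHE40 in CF proximal lung (1.86) resting on 1 library.

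Calls between neighbouring days in WT began after day 80. Between days 80 and 100 BHLHE40 rose by 2.32 (SE 0.43, adjusted p = 0.0319) and ADM by 1.29 (SE 0.26, adjusted p = 0.0426) in proximal lung, where 1.94% of all genes were called. ADM rose by 1.29 (SE 0.208, adjusted p = 0.0274) in distal lung, where 1% were. Between days 100 and 120 ADM alone was called, at 1.53 (SE 0.245, adjusted p = 0.015) in proximal lung (2.67% of all genes) and 1.78 (SE 0.202, adjusted p = 0.0053) in distal lung (2.49%). Both WT day 100 libraries of a region carry 1 animal label, so the spread between them may not be that between animals. With these libraries summed, a choice made after seeing the data, ADM from day 100 to 120 in proximal lung stayed called (1.57, SE 0.235) and the other member calls were lost. Most calls over all genes were lost in these fits as well, so the loss was not particular to the members. For the step from day 80 to 100 BHLHE40 then differed by 2.38 (adjusted p = 0.115) and ADM by 1.26 (adjusted p = 0.0754) in proximal lung, and ADM by 1.31 (adjusted p = 0.209) in distal lung. From day 100 to 120 in distal lung ADM differed by 1.77 (adjusted p = 0.103). No member was called between days 65 and 80 (0.011% and 0.0164% of all genes) by edgeR. In all 6 CF steps together 0 of 60 member tests were called, and 2 had an unadjusted p below 0.05, where the share of all genes called reached 0.0203% in proximal and 0.928% in distal lung between days 100 and 120 and was 0% in the other 4. From day 120 to term, which was not tested, the mean of ADM in WT was higher by 2.63 in proximal and 2.52 in distal lung on the scale of log2 CPM plus 0.5.

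In CF lung none of the 10 was called from day 65 to day 120, with 1.66% of all genes called in proximal and 12.1% in distal lung. An unadjusted p below 0.05 was found for 1 of the 10 in proximal and 3 of the 10 in distal lung, and DESeq2 called 0 and 3, with 9.22% and 22% of all genes. The 3 by DESeq2 were BHLHE40 (3.55, adjusted p = 0.0197), ADM (1.88, adjusted p = 0.0199) and CA9 (-1.12, adjusted p = 0.029). ADM was at 14.7 and 8.21 CPM at day 65 and at 35.1 and 58.9 CPM at day 120 in CF proximal lung, and at 14.3 and 9.26 CPM and 36.3 and 48.6 CPM in distal lung. The day 120 libraries were above those of day 65 in both regions, as in WT. BHLHE40 was at 3.92 and 3.93 CPM in proximal and 2.04 and 1.06 CPM in distal lung of CF at day 65. BHLHE40 at day 120 was at 25.5 and 2.08 CPM in proximal and 26.4 and 8.43 CPM in distal lung, with replicate 1 the higher in both. Its change in CF proximal lung, 1.86 (SE 1.34, edgeR adjusted p = 0.564), turned to -0.87 (adjusted p = 0.646) without replicate 1 of day 120. CF proximal replicate 2, the low one, also had summed epithelial genes of 20500 CPM against 5840 CPM in replicate 1, and the part of this in the BHLHE40 level was not tested. Without the term libraries in the fit, 3 of 10 genes were called in CF distal lung, where 16.6% of all genes were, BHLHE40 rising by 3.54 (SE 0.636, adjusted p = 0.0109) and ADM by 1.88 (SE 0.313, adjusted p = 0.00837), and DDIT4 falling by 0.95 on the log2 scale (SE 0.209, adjusted p = 0.0226). Without CF distal replicate 2 of day 120, BHLHE40 was called at 4.13 (adjusted p = 0.0408), with 23.5% of all genes. With all libraries of CF distal lung in the fit, 8 of 10 endothelial and 5 of 13 epithelial genes rose over this interval, 5 cartilage, 5 neuroendocrine and 3 macrophage genes fell, and of 12 glucocorticoid-responsive genes 3 rose and 1, FKBP5, fell by 2.13 on the log2 scale. Immediate early and stress genes summed to 554 to 558 CPM at day 65 and 1490 to 3060 CPM at day 120 in CF distal lung. The part of these changes in those of BHLHE40, ADM and DDIT4 was not tested. In CF proximal lung the fit without term libraries called 0 of 10 (1.47% of all genes), as did that without replicate 1 of day 120, where 19.2% of all genes were called. The change from day 65 to 120 was thus not shown to differ between the genotypes for any of the 10.

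Among the other pathway genes, 7 of 33 other HIF targets rose and 3 fell from day 65 to day 120 in each region of WT lung, where 20.1% of all genes were called in proximal and 18.2% in distal lung. IGFBP3, a binding protein of insulin-like growth factors, rose by 3.67 (SE 0.771, adjusted p = 0.00994) in proximal and 2.7 (SE 0.681, adjusted p = 0.026) in distal lung, and EDN1 by 1.89 and 1.80. LOXL2, a crosslinking enzyme of collagen, fell by 1.19 and 1.07 and STC1 by 0.80 and 0.88 on the log2 scale. In CF 1 of the 33 rose in proximal lung, where 1.66% of all genes were called, and 3 rose and 1 fell in distal lung, where 12.1% were. VEGFA rose by 1.88 and INSIG2, a regulator of sterol synthesis, by 0.96 in CF distal lung, and HMOX1 fell by 1.35 on the log2 scale. Of the 14 subunits and regulators, 2 rose and 1 fell in WT proximal lung, 1 rose and 1 fell in WT distal lung, and 0 were called in CF proximal and 1 in CF distal lung. EPAS1 rose by 1.74 (SE 0.167, adjusted p = 0.000189) in proximal and 1.53 (SE 0.149, adjusted p = 0.000443) in distal WT lung and by 2.54 (SE 0.42, adjusted p = 0.00613) in distal CF lung. In WT proximal lung EGLN1, the main HIF prolyl hydroxylase, rose by 0.36 and ARNT2, a relative of ARNT, fell by 1.12 on the log2 scale, and HIF3A fell by 1.03 in WT distal lung.

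Proximal lung was compared with distal lung of the same animals. None of the 10 genes was called in WT before term, where 0.0481% of all genes were called by edgeR, or in CF before term, where 0% were. Their log2 fold changes of proximal over distal ran from -0.33 to 0.32 in WT and from -0.36 to 0.58 in CF, with an unadjusted p below 0.05 for 0 genes in WT and 4 in CF. DESeq2 called 0 in WT (0.331% of all genes) and 2 in CF (1.53%), EGLN3 at 0.58 (adjusted p = 0.000345) and DDIT4 at 0.32 (adjusted p = 0.00377), both higher in proximal lung. With edgeR EGLN3 was called without CF replicate 1 of day 120 (0.64, adjusted p = 0.0319), with 1.72% of all genes. Both regions come from the same animals and are not independent replicates of a genotype's level.

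How closely the 10 genes moved together depended on the CF term libraries. Over all 40 libraries the median Pearson r of log2 CPM over the 45 pairs was 0.60, from -0.26 for ANKRD37 with CA12 to 0.92 for EGLN3 with DDIT4, and 9 pairs exceeded 0.8. Without CF term replicate 2 the median over 38 libraries was 0.05, and over the 32 libraries before term it was 0.07, from -0.58 for BNIP3 with BNIP3L to 0.73 for BHLHE40 with ADM. Libraries share animals, ages and depth, and these values are descriptions. Of 13710 genes, those most like the mean of the 10 standardised genes over all libraries were LDHA (r = 0.95), SLC16A3, LOC101113211, NFIL3 and APOLD1 (0.94 each). Before term they were INHBA (0.87), SLC2A3 (0.81), LDHA (0.80), NRK (0.80) and GFRA1 (0.78). Without CF term replicate 2 they were FGL2 (0.84), FUT8 (0.80) and LDHA (0.78) over 38 libraries, and ADAMTS8 (0.73) was nearest to EGLN3. Single members were nearest to TPI1 for EGLN3 (0.92), GPI for BNIP3 (0.95), ENO1 for DDIT4 (0.93), ERO1A for AK4 (0.95), KDM3A for BNIP3L (0.94), BCL6 for BHLHE40 (0.94) and LRRFIP1 for ADM (0.96) over all libraries. Before term the nearest genes were others, SLC2A3 for EGLN3 (0.84) and PXDC1 for BNIP3 (0.92), and CA9 and CA12 had no neighbour above 0.76 over all libraries.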

How the data were processed

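The authors made oligo-dT RNA-seq libraries, aligned paired reads to Oar_v4.0 with STAR, whose release differs between the labels and the study's methods, and counted them on genes with featureCounts 1.6.3. The deposited values are these counts, not normalized. The annotation release, strand setting and treatment of mates are not given in the sources used here, and 69.2% to 85.8% of counts from 1 to 20 were even. Tests were run with edgeR 4.0.16 under R 4.3.3 (filterByExpr, count minimum 10, total minimum 15; TMM; glmQLFit and glmQLFTest), keeping 18186 to 20344 genes. CF against WT used the 20 libraries of a region, time courses the 10 of a genotype and region, and regions the 20 of a genotype with the animal as a block. The libraries of a condition differ by animal label except WT day 100, where both carry 1 label. One further label is on WT day 65 replicate 2 as well as on CF day 100 replicate 2, and their titles and ages were followed. Differences at term are log2 of CPM plus 0.5. Correlations used log2 CPM (prior count 2) of genes averaging 1 or more.

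The members and gene lists were chosen with earlier results of these data known. All members are named, and from each list at most 3 genes in each direction with the largest change, besides HIF1A, EPAS1, SLC2A3 and marker genes, which were added after their values were seen. Alternatives were RLE, DESeq2 1.42.0, no filter, limits of adjusted p 0.001 and log2 fold change 0.58, thinning to equal depth, a replicate block, the WT day 100 libraries summed, fits without term libraries, TMM over all libraries and each library left out. Sequences were not used here, and the values of 1 listed gene are not reported here. Same-animal pairs of regions were known from the labels, and their deviations correlated between -0.16 and 0.81 in WT and between -0.47 and 0.85 in CF.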

Additional observations from a re-analysis of the deposited data

Results flagged for a closer look

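For EGLN3 in proximal lung and for ANKRD37 and BNIP3L in both regions, every CF term library was above both CF day 120 libraries. Every WT term library was below both WT day 120 libraries, and this difference was not tested. Day 120 and term libraries come from different animals. In log2 of CPM plus 0.5, the CF change exceeded the WT change by 4.13 for EGLN3 in proximal lung. For ANKRD37 it did so by 5.06 in proximal and 5.96 in distal lung, where WT fell below its day 120 level by 1.45 and 1.66 on average without a test. For BNIP3L the excess was 2.31 in proximal and 1.61 in distal lung, with WT lower at term by 0.48 and 0.47. WT EGLN3 was lower at term by only 0.25 in proximal lung, within its range before term of 4.04 to 12.3 CPM. In distal lung WT EGLN3 was higher at term by 0.27. CF replicate 1 alone was above the day 120 mean by 2.22 for EGLN3, by 2.03 and 2.53 for ANKRD37 and by 1.00 and 0.50 for BNIP3L. The proximal BNIP3L values rest on CF day 120 libraries at 58.8 and 22.6 CPM, and without replicate 2 of that day, a choice made after seeing the data, CF replicate 1 at term was above by 0.32 and the excess over WT was 1.63. These genes were chosen with the term difference known, and the cause was not tested.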

How the results depend on the processing

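Before term, the count of the 10 genes called between CF and WT was 0 in each region and became 2 in proximal and 4 in distal lung, both without the term libraries in the fit (21.8% and 39% of all genes) and without CF term replicate 2 (21.6% and 34.9%), an alternative chosen after seeing the data. Leaving out each of the 16 libraries before term gave 0 to 1 in the proximal region (13.8% to 34.9% of all genes) and 0 to 0 in distal lung (25.4% to 33.4%). EGLN3 in distal lung then ran from -0.40 to 0.03, positive without WT day 65 replicate 1. From day 65 to 120, the study's limits left 2 genes in WT proximal (3.17% of all genes) and 1 in WT distal lung (1.56%), where summing the WT day 100 libraries also left 1 (12.1%). Leaving out 1 library of day 65 or 120 leaves 1 library on that day, so effect sizes are given. Over 11 alternatives, these included, the change in WT proximal lung ran from 3.03 to 3.66 for ADM and from 3.39 to 4.53 for BHLHE40. It ran from 1.58 to 1.93 for ANKRD37 and from -1.13 to -0.68 for DDIT4. In WT distal lung it ran from 3.1 to 3.34 for ADM and from -1.08 to -0.48 for DDIT4. The calls of ANKRD37 in proximal and DDIT4 in distal lung were lost under some of these. CF distal lung went from 0 to 1 without the filter (BHLHE40; 10.9% of all genes), to 3 by DESeq2 (BHLHE40, ADM, CA9; 22% of all genes), and to 3 without term libraries and without CF term replicate 2 (BHLHE40, ADM, DDIT4; 16.6% and 15.7%). Between regions, CF went from 0 to 2 by DESeq2 (1.53% of all genes). With each of 8 animals before term left out in turn, CF had 0 to 1 (0% to 1.72% of all genes) and WT stayed at 0 to 0 (0.0156% to 0.0726%).

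At term, the genes above both WT libraries in both CF libraries numbered 5 to 8 with a library of proximal lung left out and 6 to 8 with one of distal lung left out, an order then held by 31.4% to 38.8% of all genes in proximal and 32.9% to 36.4% in distal lung. With a library left out, the CF minus WT difference ran from -0.38 to 4.08 for BHLHE40 and from -1.13 to 1.72 for ADM in proximal lung. The ranges in distal lung were -0.19 to 3.85 for BHLHE40 and -0.93 to 1.75 for ADM, negative in each case without CF replicate 2. CA9 in proximal lung ran from -1.35 to 0.04, positive without CF replicate 1, and CA12 in distal lung from -3.02 to 0.09, positive without WT replicate 2. The cause was not tested.

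The replicate number as a block moved the count of members called in 0 comparisons, CF distal lung included. Libraries of the same number on different days deviated together in CF distal lung (r from 0.15 to 0.66 over 6 pairs) and not throughout in the other 3 courses (r from -0.75 to 0.83). Depth was confounded with genotype before term, and thinning to equal depth changed 0 calls. With 2 libraries a condition, 79 member results had no call under any alternative keeping all compared libraries. Of these, 35 changed sign under some alternative, here with the fits that left out a library included.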
